A study of Mus musculus with 6 samples.

Results

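The genes described here are 8 members of the S100 family that lie on mouse chromosome 3: S100a1, S100a3, S100a4, S100a6, S100a10, S100a11, S100a13 and S100a16. They were taken by symbol from the 54446 genes listed in each of 6 single-cell 5' libraries made in droplets. The set was proposed with the difference between the culture groups already known, so the group values of these 8 genes are a description and carry no test. GL261 is an established mouse glioma line, labelled glioblastoma cell and kept in a differentiation medium with FCS (fetal calf serum), with 2 libraries. GL261-GSCs are cultures derived from it, labelled glioblastoma stem cell and kept in a defined GSC medium, with 4 libraries. Both groups carry brain as their tissue label, although both are cultures of one line. Medium and growth form cannot be told apart, since the protocol speaks of cells and neurospheres and gives no group with only one of them changed. The labels give no separate cultures behind the replicates, so spreads and p-values measure only the difference between these libraries, which may be technical. Whether whole cells or nuclei were loaded is not settled by the protocol.

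S100 proteins are small calcium-binding proteins with a pair of EF-hand motifs, and most work as dimers that, on binding calcium, expose a surface that grips other proteins. Their targets include annexins at membranes and myosin in the cell cortex, and some are released and act on receptors outside the cell. In brain and in glioma the best-known member is S100b, an astrocyte and glial marker encoded on another chromosome, while S100a4, S100a6, S100a10 and S100a11 are widely studied in motile and mesenchymal-type tumour cells.

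Called cells numbered 4264 to 7275 per library, with medians of 6670 to 15478 unique molecular identifiers (UMIs) per cell and 33320530 to 79472306 UMIs summed over the cells of a library. Between 32 and 59 cell barcodes were shared by any pair of libraries, where chance gives 26.1 to 57.9. Over 10415 genes, the median absolute log2 difference was 0.17 between GL261-GSCs replicates 1 and 2 and 0.19 between replicates 3 and 4, against 0.25 to 0.41 for other GL261-GSCs pairs and 0.37 to 0.56 between the groups, so that these pairs stood closer. Levels are given in CPM (UMI counts of a gene scaled to the same total in every library) with TMM scaling, which evens out composition between libraries. Because they are 5' counts, not divided by gene length, levels are compared between libraries and not between genes. Marker levels are given without TMM scaling. Vim was at 13300 and 14000 CPM in GL261 and 4530 to 5220 CPM in GL261-GSCs, and Nes at 1120 and 1160 against 341 to 582 CPM. Cd44 was also lower in GL261-GSCs, at 142 and 121 against 55.3 to 77.3 CPM. Sox2 was higher there, at 63.4 and 61.9 against 82.3 to 145 CPM. Gfap was at 1.25 CPM or less, and Olig2 was at 0.872 CPM or less in GL261 against 404 to 792 CPM in GL261-GSCs. The 5 neutrophil markers, which include S100a8 and S100a9, summed to between 0.0252 and 0.746 CPM, and the 5 keratinocyte markers to 0.239 CPM at most. The 6 macrophage markers summed to between 9.52 and 25.3 CPM, nearly all of it Cd68 and Csf1r, with Csf1r at 12.2 and 11.6 CPM in GL261 and 0.210 to 0.244 CPM in GL261-GSCs. Cd68 was higher there, at 7.47 and 6.46 CPM in GL261 and 13.9, 9.22, 19.0 and 25.1 CPM in GL261-GSCs, with Ptprc, Aif1, Itgam and Tyrobp at 0.0985 CPM or less in every library. The 4 endothelial markers summed to 1.56 CPM at most. The 5 fibroblast markers summed to 18.1 and 13.7 CPM in GL261 and 79.6, 278, 373 and 389 CPM in GL261-GSCs, nearly all of it Col3a1 and Pdgfra in GL261-GSCs. Pdgfrb went the other way, from 4.69 and 4.64 CPM in GL261 to between 0.0153 and 0.176 CPM. Dcn and Lum were at 0.570 CPM or less in every library. The part of these markers in the S100a values was not tested.

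On GRCm38 with the GENCODE M21 annotation, 6 of the genes form one cluster and the other two lie apart. S100a1 (ENSMUSG00000044080.9) occupies chr3:90511034-90514392 on the minus strand, and the remaining 7 genes are on the plus strand. S100a13 (ENSMUSG00000042312.9) follows head to head at chr3:90514435-90524581, only 42 bases away. S100a16 (ENSMUSG00000074457.10) lies at chr3:90537254-90543151, S100a3 (ENSMUSG00000001021.12) at chr3:90560578-90602702, S100a4 (ENSMUSG00000001020.8) at chr3:90603771-90606045 and S100a6 (ENSMUSG00000001025.8) at chr3:90612882-90624181. S100a3 ends 1068 bases before S100a4 starts. S100a11 (ENSMUSG00000027907.4, chr3:93520488-93526287) and S100a10 (ENSMUSG00000041959.14, chr3:93555080-93564643) are 28792 bases from each other and 2896306 bases beyond S100a6. Exons of S100a3 and of S100a4 overlap the gene model Gm42674 on the same strand. Gm42674 itself had 2 UMIs in all libraries, and the counts of S100a3 and S100a4 are uncertain to the extent that shared reads were discarded. The pseudogene S100a11-ps had 0 UMIs.

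The stretches just upstream of the annotated starts are shown for the genes with contrasting values below, and for the gap between S100a1 and S100a13 because both genes start at its edges. They are from the RefSeq promoter table on GRCm38, plus strand, 5′ to 3′, cut where a GENCODE exon begins, with capitals marking TATAAA in the S100a4 stretch and TGANTCA in the S100a11 stretch.
S100a4, chr3:90603520-90603769: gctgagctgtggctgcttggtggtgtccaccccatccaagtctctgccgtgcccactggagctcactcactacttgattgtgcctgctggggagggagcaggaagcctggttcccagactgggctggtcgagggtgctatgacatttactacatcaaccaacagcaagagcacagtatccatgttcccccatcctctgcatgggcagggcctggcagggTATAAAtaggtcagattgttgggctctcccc
S100a6, chr3:90612644-90612881: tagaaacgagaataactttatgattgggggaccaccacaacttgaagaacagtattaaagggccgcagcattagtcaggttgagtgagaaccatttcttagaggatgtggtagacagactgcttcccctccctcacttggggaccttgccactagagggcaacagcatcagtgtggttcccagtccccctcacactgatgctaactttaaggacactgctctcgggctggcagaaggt
S100a11, chr3:93520246-93520487: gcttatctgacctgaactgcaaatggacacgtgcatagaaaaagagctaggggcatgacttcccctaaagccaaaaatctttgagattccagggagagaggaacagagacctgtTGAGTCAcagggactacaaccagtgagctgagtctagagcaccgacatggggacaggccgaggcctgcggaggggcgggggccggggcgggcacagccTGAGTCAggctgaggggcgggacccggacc
S100a16, chr3:90537004-90537253: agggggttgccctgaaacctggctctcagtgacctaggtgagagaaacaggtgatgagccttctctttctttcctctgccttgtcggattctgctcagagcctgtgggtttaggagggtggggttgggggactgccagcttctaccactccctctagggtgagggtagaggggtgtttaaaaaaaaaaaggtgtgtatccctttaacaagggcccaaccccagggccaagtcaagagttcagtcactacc
S100a1 to S100a13 gap, chr3:90514393-90514434: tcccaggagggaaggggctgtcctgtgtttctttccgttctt

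Of the 8 genes, 7 had an entry in that table, with 11 start sites between them, and S100a10 had none. The 250 bases before each start were searched on both strands for 4 motifs, none of which overlapped another in the stretches shown. The AP-1 motif TGANTCA was in the windows of S100a11, at positions 115 and 213 of the stretch shown, and of another start site of S100a16, and 6.75% of all 32851 windows held it. TATAAA was in windows of S100a4, at position 220, and of S100a3, against 12.4% of all windows. GGAATG, the TEAD motif, was in 1 window, of S100a3 (12.6% of all), and the NF-kB motif GGGNNTTCC was in none (4.98% of all). The stretch before S100a11 had 9 CpG dinucleotides and a GC content of 59.1%, and that before S100a16 had 1 CpG and 53.2% GC. Those before S100a4 and S100a6 had 2 and 3 CpG, with 57.2% and 50% GC, so few CpG were not particular to S100a16. These matches describe the letters only, and no binding was measured.

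Across the libraries the 8 genes split 3 ways. S100a3, S100a4, S100a6, S100a10 and S100a11 were lower in all 4 GL261-GSCs libraries than in both GL261 libraries, S100a16 was higher in all 4, and S100a1 and S100a13 overlapped. Of 18439 genes tested, 29.9% were called different between the groups at an adjusted p under 0.05 (edgeR), 15.8% higher and 14.1% lower in GL261-GSCs, and 56.7% had groups that did not overlap, 28.0% lower and 28.7% higher. The same threshold was passed by 6 of the 8 genes, from which nothing is read because the set was chosen on this contrast. Their median log2 fold change was -3.14, against 0.04 over all genes tested.

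**Figure D1:**
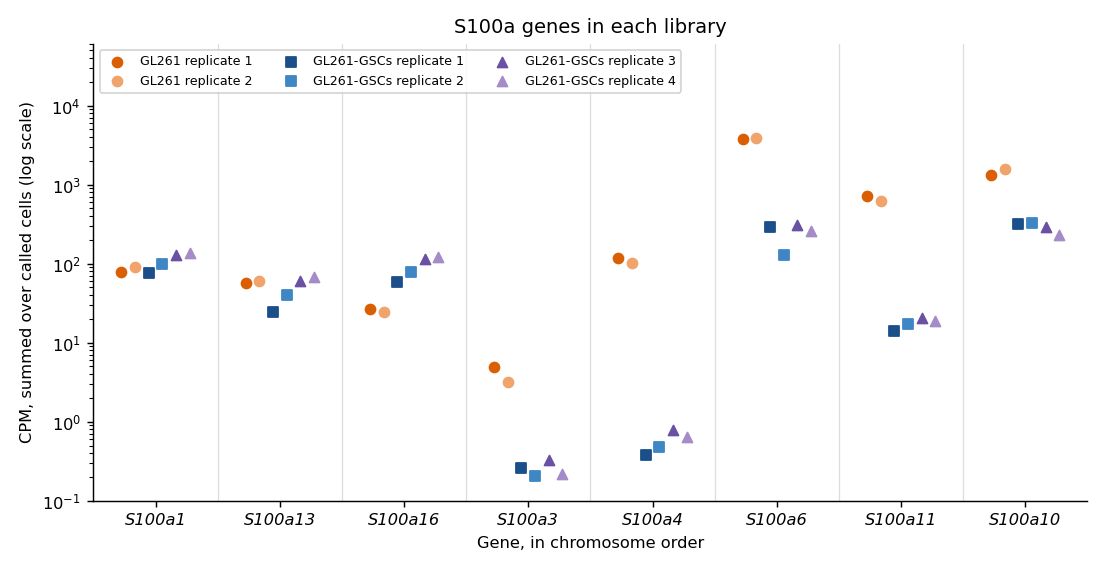
CPM of the 8 S100a genes in each library on a log axis, 2 GL261 and 4 GL261-GSCs libraries, with 1 point per library. The GL261-GSCs points of S100a4 and S100a11 lie at 0.379 to 0.788 and 14.1 to 20.3 CPM, far below the GL261 points, while those of S100a16 lie above and those of S100a1 and S100a13 mix with them.

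S100a4, called metastasin for its role in tumour cell motility, binds non-muscle myosin IIA. Its level in the GL261 libraries was 117 and 101 CPM, against 0.379, 0.483, 0.788 and 0.632 CPM in replicates 1 to 4 of GL261-GSCs. GL261 averaged 109 ± 10.9 CPM (SD, n = 2) and GL261-GSCs 0.570 ± 0.178 CPM (SD, n = 4), a fitted difference of -7.57 on the log2 scale and the largest among the 8 genes. In counts, this is 13973 UMIs in the GL261 cells against 146 in the GL261-GSCs cells. These UMIs were spread thinly over 24, 29, 60 and 20 cells of GL261-GSCs replicates 1 to 4, of which 1, 4, 3 and 2 held more than 1 UMI. In GL261, 3051 and 3003 cells held a UMI, so that the gene was seen in most GL261 cells and in very few GL261-GSCs cells.

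The neighbouring S100a3, known mainly from hair cuticle, was low throughout. The GL261 libraries held 4.87 and 3.21 CPM and the 4 GL261-GSCs libraries 0.207 to 0.325 CPM, from 523 UMIs in GL261 and 66 in GL261-GSCs. The difference was -3.98 on the log2 scale, with no overlap between the groups.

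S100a6, or calcyclin, binds the ubiquitin ligase adaptor Cacybp as well as annexins. The GL261 libraries held 3793 and 3850 CPM, close to each other, and GL261-GSCs replicates 1 to 4 held 294, 130, 306 and 260 CPM. The means were 3821 ± 40.2 CPM (SD, n = 2) and 248 ± 80.9 CPM (SD, n = 4), a 15.4-fold difference (-3.95 on the log2 scale). Among the GL261-GSCs libraries replicate 2 stood lowest, and the highest held 2.36 times its level. The other 3 lay close together.

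S100a11, or calgizzarin, pairs with annexin A1 and takes part in membrane repair. The GL261 libraries held 709 and 624 CPM, and replicates 1 to 4 of GL261-GSCs held 14.1, 17.3, 20.3 and 18.9 CPM. The means of 667 ± 59.8 (SD, n = 2) and 17.6 ± 2.67 CPM (SD, n = 4) differ 37.8-fold (-5.24 on the log2 scale). Within each group the libraries were close, and the groups were far apart.

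S100a10, also called p11, has lost the ability to bind calcium and forms a complex with annexin A2 at the plasma membrane. GL261 held 1334 and 1587 CPM and GL261-GSCs replicates 1 to 4 held 314, 325, 287 and 229 CPM. The mean fell from 1461 ± 179 (SD, n = 2) to 289 ± 43.0 CPM (SD, n = 4), 5.05-fold (-2.34 on the log2 scale), the smallest difference among the 5 lower genes. It is also the one whose GL261-GSCs level was least uneven, with 1.42 times between the lowest and highest library.

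S100a16 is a broadly expressed member that was higher in the stem cell cultures. GL261 stood at 27.0 and 24.2 CPM, and replicates 1 to 4 of GL261-GSCs at 58.05, 78.7, 115 and 123 CPM. The means were 25.6 ± 1.98 (SD, n = 2) and 93.5 ± 30.4 CPM (SD, n = 4), 3.65-fold apart (1.87 on the log2 scale). All 4 GL261-GSCs libraries were above both GL261 libraries, replicate 1 by the least.

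S100a1, best known from heart and skeletal muscle where it acts on calcium release, and S100a13, which takes part in the unconventional release of Fgf1, start 42 bases from each other and overlapped between the groups. S100a1 was at 78.0 and 89.8 CPM in GL261, against 75.1, 100.2, 128 and 135 CPM over replicates 1 to 4 of GL261-GSCs, a difference of 0.39 on the log2 scale. S100a13 was at 57.4 and 61.0 CPM in GL261, against 24.3, 40.5, 59.8 and 68.5 CPM, a difference of -0.29. For both, the range among GL261-GSCs libraries took in the GL261 levels.

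S100a1, S100a13 and S100a16 shared the order of the GL261-GSCs libraries, lowest in replicate 1 and highest in replicate 4. Median UMIs per cell ran the other way, at 15374.5, 11889.5, 10638 and 6670 in replicates 1 to 4. The order also followed the closer pairs of libraries, replicates 1 and 2 and replicates 3 and 4. The part of depth and of these pairs was not tested. Against the mean of the other 3 GL261-GSCs libraries, replicate 1 stood at -0.69 for S100a1, -1.19 for S100a13 and -0.85 for S100a16 on the log2 scale, and replicate 4 at 0.41, 0.72 and 0.55. The 488 chromosome 3 genes measured at a mean of at least 5 CPM had a median of -0.41 in replicate 1 by the same measure, against 0.04 over all genes, and of 0.003 in replicate 4. So chromosome 3 as a whole was lower in replicate 1, though by less than these genes, and not higher in replicate 4. Its part in their levels was not tested. S100a11 was also lowest in replicate 1, at -0.41, but highest in replicate 3, at 0.27. S100a4, with few UMIs, stood at -0.37 and 0.37 in those libraries, its lowest and highest. S100a6 ran differently, at 0.34 in replicate 1 and -1.14 in replicate 2. S100a10 was highest in replicate 2, at 0.23, and lowest in replicate 4, at -0.43. S100a3, with few UMIs, was lowest in replicate 2, at -0.12.

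The share of cells with a UMI was compared after each cell was thinned at random to 2000 UMIs, which evens out depth between the libraries. For S100a6 the GL261 cells gave 95.7% and 97.1%, and replicates 1 to 4 of GL261-GSCs gave 36.6%, 17.4%, 30.98% and 28.6%. Free RNA, taken from barcodes with 100 to under 1000 UMIs, would give 28.9% and 31.1% in GL261 and 1.57% to 6.90% in GL261-GSCs. At this depth a UMI of S100a6 was seen in nearly every GL261 cell and in a minority of GL261-GSCs cells, above the share from free RNA in every library. Before thinning it was seen in 81.2%, 49.5%, 65.4% and 53.5% of the cells of GL261-GSCs replicates 1 to 4, so the minority holds at 2000 UMIs only.

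S100a10 was seen in 83.1% and 88.6% of GL261 cells and in 42.1%, 42.3%, 35.6% and 29.8% of GL261-GSCs cells (free RNA 12.3% and 16.1%, and 3.81% to 7.08%). S100a11 was seen in 65.8% and 62.5%, and in 3.002%, 3.22%, 3.74% and 3.41% (free RNA 7.85% and 8.04%, and 0.241% to 0.675%). S100a4 was seen in 18.5% and 16.03% of GL261 cells, and in 0.117%, 0.0852%, 0.137% and 0.0887% of GL261-GSCs cells (free RNA 1.84% and 1.68%, and at most 0.0191%). These 3 genes were lower in GL261-GSCs in the share of cells as in CPM, with no overlap. Both measures come from the same counts and the set was chosen on this contrast, so nothing is read from the match. How many of all genes have shares of cells that do not overlap was not computed. S100a16 went the other way, from 4.47% and 4.30% to 10.0%, 14.0%, 18.3% and 19.8%, where free RNA would give 0.209% and 0.220%, and 0.658%, 0.726%, 1.58% and 2.99%, so that the free RNA share was higher in GL261-GSCs too. At 95% (exact binomial, counting error only), the S100a4 shares ran from 17.4% to 19.6% and from 15.03% to 17.1% in the GL261 libraries and from 0.0242% to 0.273% over the GL261-GSCs libraries. Unthinned, S100a6 was seen in 99.3% and 99.5% of GL261 cells and 49.5% to 81.2% of GL261-GSCs cells, where free RNA would give 86.8% and 87.1%, and 7.27% to 22.2%. For S100a10 the unthinned shares were 97.0% and 97.9% (free RNA 52.4% and 60.3%) against 57.6% to 86.8% (17.0% to 24.7%). For S100a11 they were 93.2% and 93.8% (free RNA 36.6% and 35.2%) against 12.8% to 18.2% (1.16% to 1.71%). S100a4 was then seen in 63.5% and 60.04% (free RNA 9.73% and 8.24%) against 0.443% to 0.825% (at most 0.0777%), and S100a16 in 26.0% and 21.5% (1.14% and 1.11%) against 48.5% to 57.9% (3.42% to 7.49%). With free RNA this high in GL261, the unthinned S100a6 and S100a10 shares of that group say little about single cells. Without thinning, the sign of the S100a1 difference turned, from 4.35 percentage points higher in GL261-GSCs to 1.33 points lower, so its share shows no steady direction. The libraries held no cell type known to lack these genes, so free RNA alone serves as the background.

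**Figure D2:**
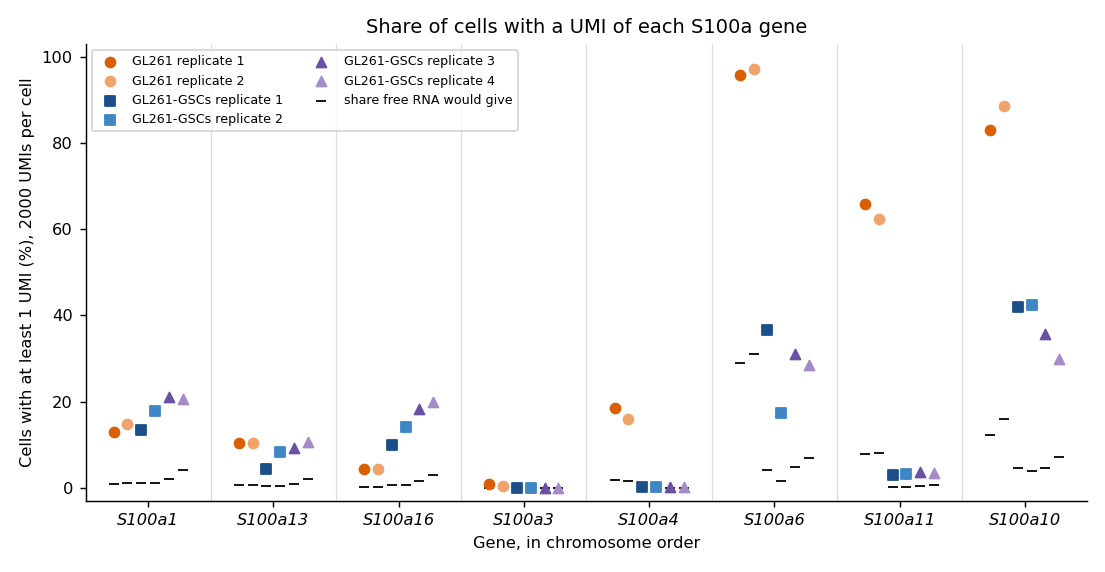
Percent of cells with at least 1 UMI of each S100a gene after thinning every cell to 2000 UMIs, by library, with the share that free RNA would give. S100a6 lies at 95.7% and 97.1% in GL261 against 17.4% to 36.6% in GL261-GSCs.

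In the GL261 libraries the free RNA was richer than the cells in S100a4, with 1.85 and 1.92 times the cells' CPM, against 1.13 and 1.20 times for S100a6 and 1.36 and 1.57 times for S100a11. The part of free RNA in the cells' S100a4 counts was not tested beyond the shares above.

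After thinning, most GL261 cells held several S100a6 UMIs and few GL261-GSCs cells did. At 2000 UMIs, 80.8% and 85.0% of GL261 cells held 3 or more S100a6 UMIs, against 4.01%, 1.62%, 5.05% and 3.59% of GL261-GSCs cells. The variance of the thinned S100a6 UMIs over cells was 3.57 and 3.23 times their mean in GL261, and 1.70, 2.83, 2.60 and 2.36 times in GL261-GSCs replicates 1 to 4. The replicate 2 value rests in good part on 1 cell with 20 or more thinned UMIs (0.0170% of its cells). In every library the variance was thus above the mean, and further above it in GL261. Before thinning, the median cell held 3, 0, 1 and 1 S100a6 UMIs by replicate number within GL261-GSCs, so the contrast in several UMIs above is for 2000 UMIs. The GL261 medians were far higher, 47 for replicate 1 and 42 for replicate 2. The median of 0 was that of GL261-GSCs replicate 2, with the lowest S100a6 level in its group and 377 UMIs in the cell with the most. Levels differ between the libraries, and their part in this spread was not tested.

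**Figure D3:**
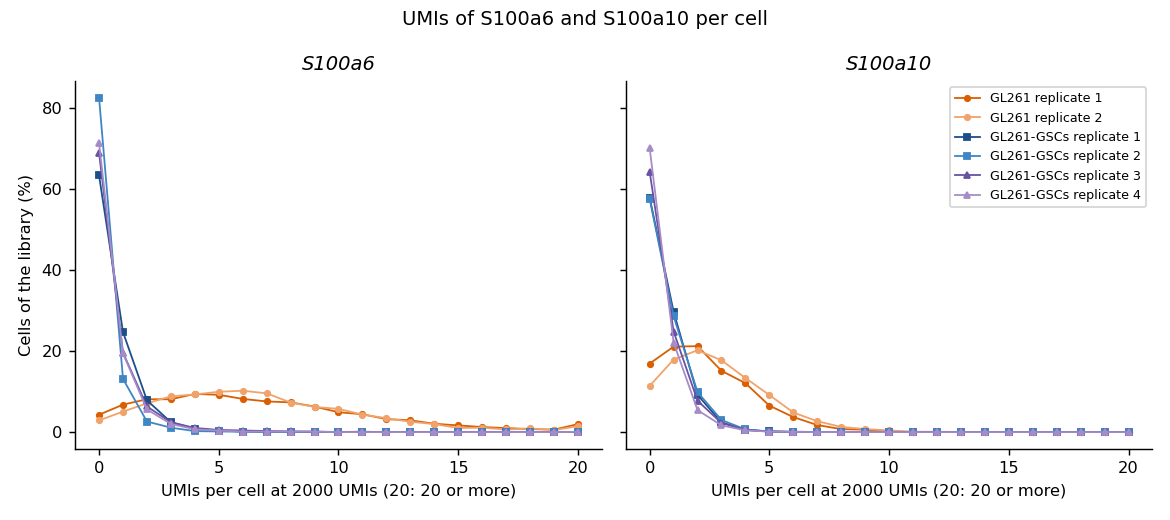
Distribution over cells of the UMIs per cell of S100a6 and S100a10 after thinning to 2000 UMIs, by library. For S100a6, 80.8% and 85.0% of GL261 cells hold 3 or more UMIs, against 1.62% to 5.05% of GL261-GSCs cells.

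S100a4, S100a6, S100a10 and S100a11 were counted together as genes lower in GL261-GSCs. At 2000 UMIs, 11.9% and 10.0% of GL261 cells held all 4, and at most 0.0235% of GL261-GSCs cells did. The share with all 4 cannot exceed that of S100a4, at most 0.137% of GL261-GSCs cells, so it says little about joint detection there. None of the 4 was seen in 1.56% and 0.980% of GL261 cells, that is 75 and 49 cells, whose median depth before thinning was 6265 and 5303 UMIs against 16673 and 13935 in the cells with all 4. In GL261-GSCs replicates 1 to 4, 38.4%, 48.5%, 46.7% and 51.5% of cells held none. Free RNA alone would give at least 1 of the 4 in 43.6% and 47.7% of thinned GL261 cells and in 8.68%, 5.55%, 9.51% and 14.1% of GL261-GSCs cells, taking the genes as independent. In both groups the measured shares with at least 1, 98.4% and 99.02% in GL261 and 48.5% to 61.6% in GL261-GSCs, were above that. No UMI at this depth does not show that a cell lacks the RNA. All 8 genes made up 0.581% and 0.582% of the UMIs of GL261 cells and 0.0716% to 0.0923% of those of GL261-GSCs cells.

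Within a library, cells with more S100a6 also held more S100a10, and in GL261 more S100a11. The Pearson correlation of S100a6 with S100a10 across cells thinned to 2000 UMIs (log scale, 4264 to 7275 cells per library) came to 0.41 and 0.34 for GL261, against 0.15 to 0.21 for GL261-GSCs. With S100a11 it was 0.34 and 0.22 in GL261, and only 0.07 to 0.08 in GL261-GSCs. S100a1, S100a13 and S100a16 followed the others weakly in GL261, with S100a1 against S100a6 at 0.06 and 0.07. The cells of a library share its preparation and depth, and counts are sparse, so these are descriptions with no test. Among genes with a mean of at least 0.2 UMIs per thinned cell, those most like S100a6 in both GL261 libraries were Cryab (0.45 to 0.47), Rpl41 (0.37 to 0.38), Tmsb10 (0.37 to 0.43), S100a10, Rps27a and Actb, out of 1789 compared. In the 4 GL261-GSCs libraries they were Cryab (0.20 to 0.27), Lgals1 (0.20 to 0.29), Mt3, S100a10, Cst6 and Rps20, out of 1472. Cryab, a small heat shock protein, and S100a10 were in both groups of 6. At the other end in GL261 stood Gm26917 (-0.36 to -0.32) and the mitochondrial transcripts mt-Co1, mt-Atp8, mt-Rnr2, mt-Nd2 and mt-Cytb (-0.32 to -0.28) for S100a6, and for S100a10 the nuclear RNAs Malat1 (-0.30 to -0.29) and Neat1 (-0.25) with 4 mitochondrial transcripts. So mitochondrial and nuclear RNA ran against these genes from cell to cell, and the part of cell quality in the correlations was not tested. S100a4 in GL261 was most like S100a6 (0.15 to 0.16) and Cryab (0.11), followed by Tmsb10, Crabp2, Actb and Anxa2.

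Cells were also divided by cell cycle within each library, a contrast other than the group contrast on which the genes were chosen. G2/M-high cells were the 20% of a library with the highest share of UMIs in 23 G2/M genes, and low cells lay under the library's median for both these and 24 S phase genes. Classes held 853 to 2058 cells. In each library 193 to 517 cells, in a class or not, lay within 10% of the G2/M-high limit on either side. G2/M-high cells were deeper, at 7912 to 17272 median UMIs against 6660 to 13772. UMIs were summed per library and class, and the classes were compared with the library as a block. Of 15363 genes tested, 48.3% differed between the classes at an adjusted p under 0.05 (edgeR), 24.0% higher and 24.4% lower in G2/M-high cells.

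Of the 8 S100a genes, 5 passed as lower in G2/M-high cells, S100a4 among them with few counts in GL261-GSCs, and none as higher. S100a1 was 0.704 and 0.689 times its level in low cells in the GL261 libraries, against 0.832, 0.826, 0.671 and 0.650 times in the GL261-GSCs libraries. It fell by 0.46 in log2 units (SE 0.06, edgeR adjusted p = 9.74e-05) and was lower in 6 of 6 libraries. S100a13, its neighbour across the 42 bases, fell by 0.47 (SE 0.05, edgeR adjusted p = 4.12e-05), with ratios of 0.665 to 0.782 in the 6 libraries. S100a16 fell by 0.42 (SE 0.06, edgeR adjusted p = 0.000257), with ratios of 0.646 to 0.863. These 3 genes, which are not among the 5 lower in GL261-GSCs, were thus lower in the G2/M-high cells of all 6 libraries, while 20.5% of all genes tested were lower in all 6.

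S100a6 was lower in G2/M-high cells by 0.67 in log2 units (SE 0.14, edgeR adjusted p = 0.00195), again in 6 of 6 libraries. GL261 gave ratios of 0.932 and 0.893, and the GL261-GSCs libraries 0.686, 0.456, 0.439 and 0.516. S100a4 passed at -0.40 (SE 0.13, edgeR adjusted p = 0.0249), but it entered the test through GL261, where its ratio was 0.817 and 0.811. With 146 UMIs over all GL261-GSCs cells, its class ratios there, from 0.221 to 1.23, rest on few counts and support nothing. The S100a4 call was lost without GL261 replicate 2 (edgeR adjusted p = 0.0549) and without GL261-GSCs replicate 3 (0.0719). S100a10 did not pass, with a log2 difference of -0.0041 (SE 0.06, edgeR adjusted p = 0.964) and ratios from 0.871 to 1.18, nor did S100a11 (edgeR adjusted p = 0.107) or S100a3 (0.0586), which had 66 UMIs in GL261-GSCs. S100a11 passed with no filter on low counts (0.000149) and without GL261 replicate 1 (0.0314) or GL261 replicate 2 (0.0378). Without the block, so that differences between libraries stayed in the spread, 0 of the 8 genes passed and 2951 genes in all were called in place of 7425. The log2 differences were then -0.49 for S100a1, -0.46 for S100a13, -0.45 for S100a16 and -0.66 for S100a6. With cells thinned to 2000 UMIs, which removes the difference in depth, S100a6 stood at -0.76 (edgeR adjusted p = 5.68e-05) and S100a10 at -0.19 (0.0391), so that S100a10 then passed.

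In log2 units the class difference of S100a6 came to -0.11 within GL261 and -1.01 within GL261-GSCs, and that of S100a11 to 0.17 and -0.59. S100a11 was above 1 in both GL261 libraries (ratios 1.11 and 1.10) and below 1 in all 4 GL261-GSCs libraries (0.876, 0.682, 0.610 and 0.646). The test of the difference between the groups gave -0.82 (SE 0.16) for S100a6 and -0.68 (SE 0.13) for S100a11, both with an adjusted p of 0.0541 (edgeR), just above the 0.05 threshold. They passed without GL261-GSCs replicate 1 (0.00474 and 0.00577) and without GL261-GSCs replicate 4 (0.0346 and 0.0265). Without GL261 replicate 1 the differences were -0.79 and -0.67, and without GL261 replicate 2 they were -0.85 and -0.68, with an adjusted p of 0.423 or more (edgeR). These fits hold 1 GL261 library, assumed to vary like the others, and 3 and 1 genes of all passed in them, in place of 75. Of all genes tested, 0.488% passed, and 0 of the 8 genes did. At an unadjusted p under 0.05 there were 3, S100a4, S100a6 and S100a11, where 14.9% of all genes tested had such a p, and S100a4 rests on the few GL261-GSCs counts and moved from -0.78 to -2.51 with thinning. DESeq2 called 2. S100b, outside the set, fell by 0.66 in G2/M-high cells (SE 0.12, edgeR adjusted p = 0.000736).

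**Figure D4:**
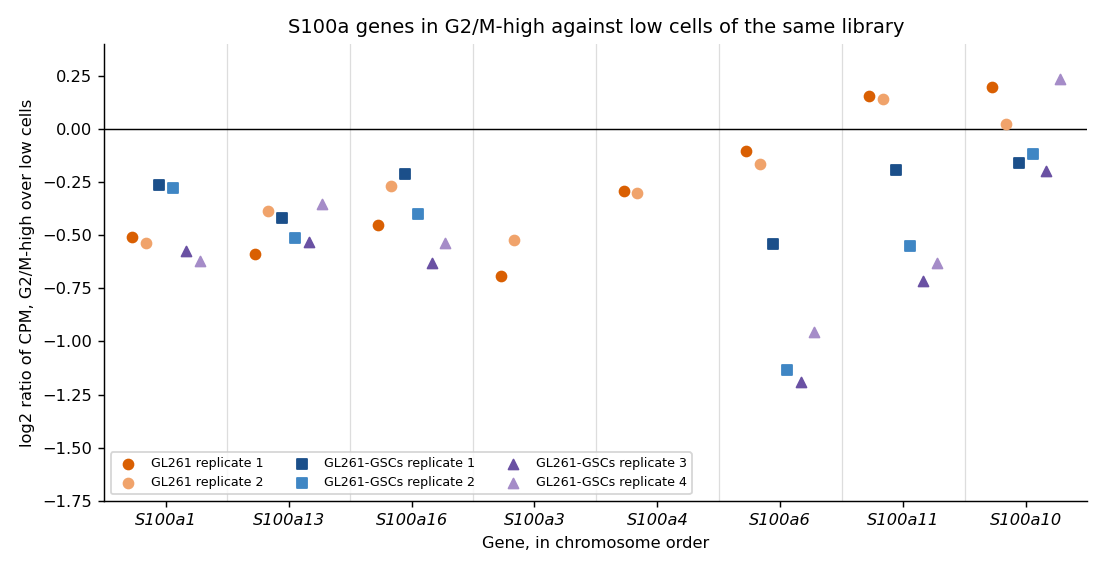
Level in G2/M-high cells against that in low cells for each S100a gene and library, as a log2 ratio where 0 means no difference, with S100a3 and S100a4 left out in GL261-GSCs because of few UMIs. S100a1, S100a13 and S100a16 lie below 0 in all 6 libraries, and S100a11 lies above 0 in GL261 and below it in GL261-GSCs.

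Among 27 genes of proteins that S100 members bind or act through, 22 were tested and 10 called between GL261-GSCs and GL261 (edgeR), 9 lower and 1 higher, where 14.1% of all genes were lower and 15.8% higher. Their median log2 fold change was -0.44, against 0.04 over all genes. Anxa2, the annexin that joins S100a10, was at 3501 and 4078 CPM in GL261 and at 256, 261, 367 and 387 CPM in GL261-GSCs, and fell by 3.57 in log2 units (SE 0.22, edgeR adjusted p = 0.000134). Myh9, the myosin heavy chain that S100a4 binds, fell by 2.19 (SE 0.13, edgeR adjusted p = 0.000120), from 1257 ± 106 (SD, n = 2) to 275 ± 19.7 CPM (SD, n = 4). Plaur, the urokinase receptor, fell by 2.79 and Anxa5 fell by 3.34. Myh14, another non-muscle myosin, rose by 3.35 (SE 0.55, edgeR adjusted p = 0.00517). Anxa2 and Myh9 were thus lower in GL261-GSCs, as were S100a10 and S100a4. Since S100a10 and S100a4 were chosen on this contrast, nothing is read from the match within these pairs. The following partners were chosen for their roles after the values were seen. Anxa1, the S100a11 partner, fell by 3.62 (SE 0.50, edgeR adjusted p = 0.00256), while Cacybp, the S100a6 partner, had 362 ± 21.02 CPM (SD, n = 2) and 302 ± 85.5 CPM (SD, n = 4), and Fgf1, the S100a13 cargo, 0.771 ± 0.271 (SD, n = 2) and 2.01 ± 2.39 CPM (SD, n = 4). Leaving out a GL261 library leaves 1 in that group, which is then assumed to vary like GL261-GSCs, and the calls over all genes drop from 5514 to 1972 without replicate 1 and 1817 without replicate 2. Without GL261 replicate 2, 6 partners were called, and Myh14 was at 3.19 and not called (edgeR adjusted p = 0.0628). Neither Cacybp nor Fgf1 passed, at adjusted p of 0.488 and 0.401 (edgeR). Ager, the receptor for released S100 proteins, was near 0 in both groups, at 0.301 and 0.271 CPM.

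Of 31 other EF-hand genes, 26 were tested and 15 called, 11 lower and 4 higher, where 29.9% of all genes were called, 14.1% lower and 15.8% higher. Their median was -0.17, against 0.04 over all genes. The actin cross-linkers Actn1 and Actn4 fell by 3.98 and 2.93 on the log2 scale (adjusted p = 4.18e-05 for Actn1, edgeR), Pls3 fell by 2.34 and the matrix protein Sparc fell by 2.48. The 4 that rose were Rcn1 (0.82), Cetn3 (0.56), Pdcd6 (0.58) and Efhd1 (3.05). Without GL261 replicate 1 the count was 8 and without GL261 replicate 2 it was 5, in those fits with fewer calls over all genes (1972 and 1817 in place of 5514). Of the genes named, those not called there stood at 0.46 and 0.65 for Cetn3 (edgeR adjusted p = 0.190 and 0.104), 0.52 and 0.63 for Pdcd6 (0.177 and 0.129) and 2.64 and 3.58 for Efhd1 (0.215 and 0.147). Efhd1 was also not called without GL261-GSCs replicate 2 (0.0655), and Rcn1, at 0.78, not without GL261 replicate 2 (0.0608).

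The S100 genes outside the set were mostly near 0. Of 9, 4 were tested and 2 called, in opposite directions, where 29.9% of all genes were called. S100b rose from 49.1 and 44.8 CPM to 89.6, 69.9, 73.8 and 80.6 CPM, by 0.74 in log2 units (SE 0.14, edgeR adjusted p = 0.0102). S100a7a, which lies in the chromosome 3 cluster, had 720 UMIs in GL261, at 5.39 and 5.90 CPM, and 5 UMIs in GL261-GSCs, with 0 in replicates 1 and 2 and 0.0549 CPM at most. It was called lower (edgeR adjusted p = 0.000585), and the size of its fitted change, -8.01 on the log2 scale, depends on those few counts. S100a8 and S100a14 were tested and not called, and S100a2, S100a5, S100a9 and S100g had 14, 5, 1 and 3 UMIs. With 1 GL261 library left, S100b stood at 0.80 without replicate 1 (edgeR adjusted p = 0.0823) and 0.67 without replicate 2 (0.126), not called, while S100a7a was called. Calls over all genes fell to 1972 and 1817 in those fits.

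Leaving out the other S100 genes, which lie in the same window, 93 genes had a position within 500 kb of one of the 8 genes. Of these, 25 were tested and 5 called, all lower, where 29.9% of all genes were called and 14.1% were lower. They were Tpm3 (-0.95), Snapin (-0.66), Nup210l (-1.73), Rab13 (-0.50) and Slc39a1 (-0.70), and the list's median was -0.30. Most of the tested neighbours lay before S100a1 on the chromosome. Near S100a11 and S100a10 only Rplp0-ps1 was tested, so the list says little about their surroundings. Chromosome 3 genes as a whole had a median of -0.22 on the log2 scale (GL261-GSCs mean over GL261 mean), against -0.04 over all genes by that measure. Snapin, an S100a1 neighbour, stood at 41.4 ± 2.87 CPM (SD, n = 2) and 26.2 ± 2.94 CPM (SD, n = 4). Chtop and Ilf2 were not called, at -0.25 and -0.32. The count was 2 with library size scaling, 1 without GL261 replicate 1, 0 without GL261 replicate 2 and 3 without GL261-GSCs replicate 3. With 1 GL261 library left, calls over all genes fell to 1972 and 1817. Without replicate 1 and without replicate 2 of GL261, Nup210l stood at -1.45 and -1.99 (edgeR adjusted p = 0.166 and 0.0717), Snapin at -0.74 and -0.60 (0.0866 and 0.152), Rab13 at -0.51 and -0.51 (0.197 and 0.213) and Slc39a1 at -0.75 and -0.66 (0.145 and 0.2005). Tpm3 stood at -0.85 without GL261 replicate 2 (0.0729). Without GL261-GSCs replicate 3, Rab13 (0.0783) and Slc39a1 (0.0792) were not called, and with no filter Rab13 was not (0.0932). Library size scaling left Rab13 (0.121), Slc39a1 (0.0640) and Snapin (0.0537) uncalled. Slc39a1 was also lost without GL261-GSCs replicate 1 (edgeR adjusted p = 0.0527) or replicate 4 (0.0515).

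**Figure D5:**
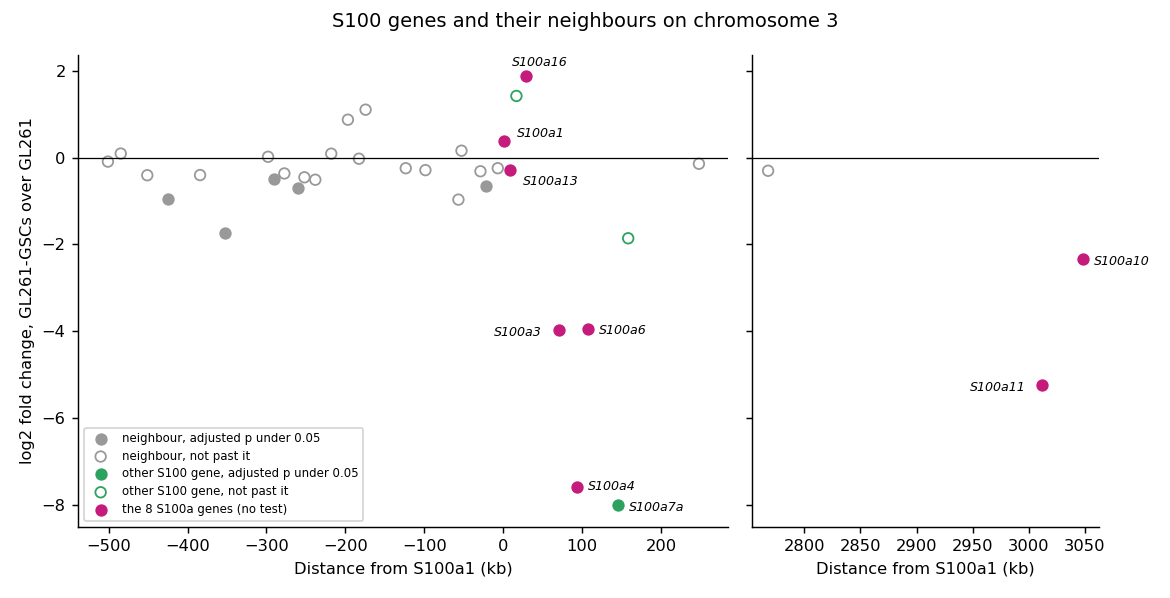
Log2 fold change of GL261-GSCs over GL261 against distance from S100a1 for the 8 S100a genes and the genes near them, filled where the adjusted p was under 0.05 (no test for the 8 S100a genes). S100a3, S100a4 and S100a6 at -3.98, -7.57 and -3.95 lie below the neighbours outside the S100 family, and S100a16 at 1.87 above them, while S100a7a, another S100 gene, is at -8.01.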

How the data were processed

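Deposited were raw UMI counts per gene and barcode for 6 libraries, made with Cell Ranger 4 and unfiltered, per the file headers, and on mm10 per the submitters' processing notes. Neither annotation release nor counting options were given in the sources used here. Of 54446 gene identifiers, 54409 matched GENCODE M21 (GRCm38) without version and 53229 with it. Barcodes were called cells at 10% or more of the 99th percentile of the top 3000 barcodes, at least 500 genes and under 10% mitochondrial UMIs, a limit that removed 30 to 191 barcodes per library. Doublets were not removed. Total UMIs per library were 80899005 to 121309232, of which the cells held 41.2% to 65.7%. Groups and replicate numbers came from the titles.

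Counts summed per library (or library and class) were tested with edgeR 4.0.16 in R 4.3.3 (glmQLFit, glmQLFTest, TMM, filterByExpr), 2-sided, with Benjamini-Hochberg adjustment over all genes tested and a threshold of 0.05. The SE was taken as the size of the log2 fold change over the root of its F value. Thinning, shares and correlations used numpy 2.4.6 and scipy 1.17.1. The main fit did not pair libraries by replicate number. Deviations of same-numbered libraries correlated at -0.007 and 0.071 over 18439 genes. With 2 GL261 libraries, whose deviations mirror each other, these values cannot decide whether the numbers pair the libraries. The fits were tested on simulated data. The 8 genes, the lists and the tests were chosen with earlier results of these data known. Named were the 8 genes, other S100 genes with a count, the 4 genes of each list with the smallest p, genes called against a list's majority, the 5 called neighbours, and the 6 most alike genes. Chtop, Ilf2, Ager and the partners noted in the text were added after their values were seen. Alternatives were DESeq2 1.42.0, library size scaling, no filter, other cell calling, thinning, class limits, the replicate block and leaving out each library.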

Additional observations from a re-analysis of the deposited data

Results flagged for a closer look

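S100a11 differed between G2/M-high and low cells in opposite directions in the groups, higher in both GL261 libraries and lower in all 4 GL261-GSCs libraries. The difference between the groups was -0.68 on the log2 scale (SE 0.13), and its test did not pass, with an adjusted p of 0.0541 (edgeR).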

How the results depend on the processing

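Between the groups the 8 genes carry no test. With 1 library left out their log2 differences ranged from -7.80 to -7.40 for S100a4, -5.33 to -5.13 for S100a11, -4.06 to -3.71 for S100a6, -4.26 to -3.66 for S100a3, -2.47 to -2.21 for S100a10, -0.49 to -0.06 for S100a13, 0.28 to 0.55 for S100a1 and 1.74 to 2.06 for S100a16. With the replicate number as a replicate block S100a13 stood at -0.91, and whether the numbers pair the libraries is not known. By cell cycle, 5 of 8 passed, 0 with no replicate block, 5 with DESeq2, 7 with no filter (S100a3 and S100a11 added), 6 with the top 10% or library size scaling (S100a3 added), 6 of the 7 tested with thinning (S100a10 added), and 4 to 6 with 1 library left out. For the difference of the cell cycle effect between the groups, 0 of 8 passed, 2 with DESeq2, 2 with no filter, 2 with cells thinned to 2000 UMIs, 1 with library size scaling (added after the data were seen) and 0 to 2 with 1 library left out. Those that passed in these settings were S100a6 and S100a11, with S100a11 alone under library size scaling. The cause was not tested. In the main fits 48.3% of all genes passed by cell cycle, and 0.488% for the difference of that effect between the groups. Calls over all genes are not given for most other settings, so nothing is read from the counts of the 8 genes there. The sign of that difference turned for S100a13 with DESeq2 (-0.0238), with no filter (-0.0297) and with the top 10% as G2/M-high (-0.0684), against 0.03, and for S100a1 with thinning (-0.0287), against 0.09. With 1 library left out the ranges were -0.1238 to 0.1325 for S100a13, -0.0879 to 0.1039 for S100a1, -0.2803 to 0.0031 for S100a16 and -0.9199 to 0.1788 for S100a3. The S100a1 share difference turned to -1.33 percentage points unthinned and to -4.04 with every barcode of at least 1000 UMIs. With library size scaling 2 neighbours were called in place of 5, where the all-gene median shifted to 0.18 from 0.04 on the log2 scale. With 1 library left out the called genes numbered 0 to 6 of the neighbours, 5 to 15 of the EF-hand list, 1 to 3 of the other S100 genes and 6 to 11 of the partners. Few counts limit what can be read for S100a3 and S100a4 in GL261-GSCs, where they had 66 and 146 UMIs.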
